A study of Homo sapiens with 2 samples.

Results

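The aryl hydrocarbon receptor AHR, its partner ARNT, its repressor AHRR and the AHR target genes CYP1A1, CYP1A2, CYP1B1 and TIPARP were examined in the established human glioblastoma cell line U87, labelled as wild type. These 7 genes were taken by name, from 41582 genes with a symbol, and their 52 transcripts from the 177816 listed. Cells had received either the curcumin analog CCA-1.1 or the solvent DMSO for 72 h, and each condition gave 1 library. The concentration of CCA-1.1 used for sequencing is not given in the sources used here. Without replicates, no difference could be set against a spread between cultures, and p-values were not calculated. AHR and CYP1B1 are on the list of predicted CCA-1.1 targets in glioblastoma that the study compiled, and the comparison gives the RNA level of this pathway with and without the compound.

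AHR is a ligand-activated transcription factor that waits in the cytoplasm bound to HSP90 and co-chaperones. Once a ligand binds, such as a planar aromatic pollutant or a product of tryptophan, AHR moves to the nucleus, pairs with ARNT and binds the xenobiotic response element (XRE) of its target genes. The targets include the CYP1 enzymes, which oxidize many of the ligands, and the repressors AHRR and TIPARP, which restrain the receptor. In gliomas, kynurenine formed from tryptophan is known as a ligand made by the tumor cells.

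Levels are in TPM, a normalized share of the transcripts of a library, summed over the transcripts of a gene. This unit is corrected for transcript length, so levels of different genes within a library may be compared, but it keeps no read depth, and no interval for counting error can be given. Log2 differences were taken between the libraries after adding 1 to each TPM value, CCA-1.1 over DMSO, which makes changes of low genes look smaller. A difference above 1 or below -1 counts as past 2-fold. The mesenchymal markers VIM (3217 TPM with DMSO, 3106 TPM with CCA-1.1) and CHI3L1 (4947 TPM and 4397 TPM) were high, whereas the astrocyte markers GFAP (0.41 TPM and 0.57 TPM) and S100B (listed at 0 in both) were not. Of the other cell types checked, PTPRC of leukocytes was below 0.1 TPM in both libraries, CD3E and AIF1 were listed at 0, and EPCAM of epithelium was below 0.2 TPM, while CD68, a lysosomal protein used as a macrophage marker, was at 494.2 TPM with DMSO and 397.1 TPM with CCA-1.1. Summed levels were 3.93 TPM with DMSO and 3.23 TPM with CCA-1.1 for 3 endothelial markers (mostly PECAM1), 40.3 TPM and 37.3 TPM for 4 neuronal markers (mostly SNAP25 and SYT1, with SNAP25 lower and the others higher with CCA-1.1), and 18.2 TPM and 15.1 TPM for 3 hepatocyte markers, of which APOA1 and CYP3A4 were below 0.2 TPM. None of the 28 marker entries was past 2-fold, beside 1.53% of all 41582 genes. In such bulk RNA, fewer cells with a transcript and less of it per cell cannot be told apart.

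None of the 7 genes was past 2-fold, beside 1.53% of all 41582 genes. Of the genes with a mean of no less than 1 TPM, which 6 of the 7 members had, 3.56% were. With shares so low, this does not set the members apart. With CCA-1.1, AHRR was 6.33 TPM higher, TIPARP was 7.72 TPM higher and AHR differed by -6.73 TPM, while ARNT was at the same level in both. The order CYP1B1, TIPARP, AHR, ARNT, AHRR, CYP1A1, CYP1A2 held in both libraries, but AHR, ARNT and AHRR lay between 44.3 and 48.2 TPM with CCA-1.1, and without replicates these neighbours cannot be said to differ. The median difference of the 7 genes was 0.0003, and that of the 15485 genes with a mean of no less than 1 TPM was 0.03.

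**Figure D1:**
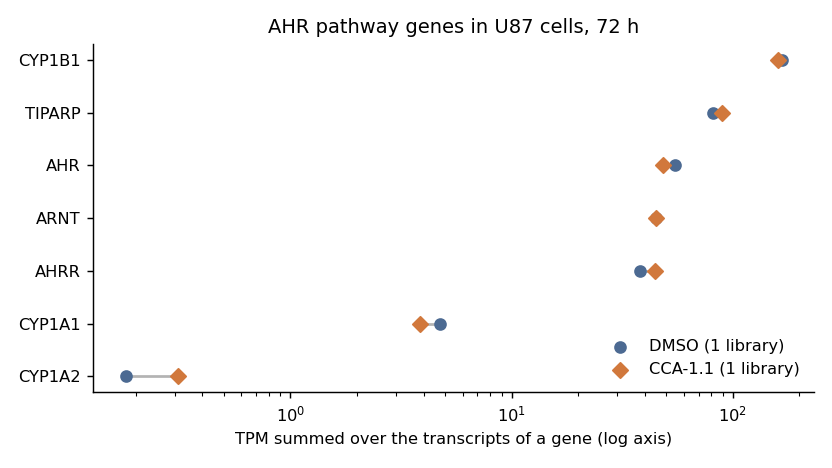
TPM of each gene on a log axis, summed over its transcripts, with a circle for the DMSO library and a diamond for the CCA-1.1 library (1 library each, so there are no error bars). CYP1B1 lies above 160 TPM in both libraries, the 4 genes TIPARP, AHR, ARNT and AHRR lie between 37.9 and 89.2 TPM, and CYP1A1 lies below 5 TPM and CYP1A2 below 1 TPM.

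AHR (Entrez identifier 196, chromosome 7 of GRCh38.p14 from 17298652 to 17346147) was at 54.9 TPM with DMSO and 48.2 TPM with CCA-1.1. Relative to DMSO this was a change of -12.3% in level, and -0.18 as a log2 difference. The table lists a single transcript for AHR (NM_001621.5), so reads could not be divided between transcripts of the gene. In the DMSO library, 86.1% of the 19938 protein-coding genes had a lower level than AHR, and in the CCA-1.1 library 84.5% did.

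ARNT (Entrez identifier 405, chromosome 1 from 150809713 to 150876599), the partner that AHR needs in order to bind DNA and that also pairs with the hypoxia factors, was at 45.08 TPM with DMSO and 45.09 TPM with CCA-1.1. The gene total was thus level between the libraries, although its transcripts were not. AHR was at 1.22 times the ARNT level in DMSO and at 1.07 times in CCA-1.1. ARNT2, a close relative with most of its known role in the nervous system, was at 9.83 TPM and 9.04 TPM, about 21.8% and 20.0% of the ARNT level.

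AHRR (Entrez identifier 57491, chromosome 5 from 321714 to 438285), which competes with AHR for ARNT and represses XRE genes, was at 37.9 TPM with DMSO and 44.3 TPM with CCA-1.1. This was a log2 difference of 0.22, or a level 16.7% higher in the CCA-1.1 library. The ratio of AHRR to AHR was 0.69 with DMSO and 0.92 with CCA-1.1, with both terms moving. TIPARP (Entrez identifier 25976, chromosome 3 from 156674590 to 156706770), an ADP-ribosyltransferase also known as PARP7 that restrains AHR, was at 81.5 TPM with DMSO and 89.2 TPM with CCA-1.1, a log2 difference of 0.13. Both repressors were thus higher in the CCA-1.1 library by less than 2-fold.

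CYP1B1 (Entrez identifier 1545, chromosome 2 from 38067509 to 38076151), a P450 enzyme that oxidizes estrogens and polycyclic hydrocarbons, was at 166.2 TPM with DMSO and 160.1 TPM with CCA-1.1. The difference was -0.05, from a single transcript (NM_000104.4). CYP1B1 held 97.1% of the TPM of the CYP1 genes in DMSO and 97.5% in CCA-1.1, so the other CYP1 members were a minor part of the family in both libraries. In the DMSO library 95.6% of protein-coding genes had a lower level than CYP1B1. Its antisense neighbour CYP1B1-AS1 was at 1.30 TPM and 1.16 TPM; whether strand was used in quantification is not stated.

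CYP1A1 (Entrez identifier 1543, chromosome 15 from 74719542 to 74725528), the classical inducible target of AHR, was at 4.74 TPM with DMSO and 3.84 TPM with CCA-1.1. Relative to DMSO this was a change of -19.0% in level, with a log2 difference of -0.25, and CYP1B1 stood at 35.1 times CYP1A1 in DMSO and 41.7 times in CCA-1.1. CYP1A2 (Entrez identifier 1544, chromosome 15 from 74748845 to 74756607), a liver enzyme that metabolizes caffeine, was at 0.18 TPM with DMSO and 0.31 TPM with CCA-1.1. Both values are low, in a table whose smallest value above 0 is 0.01 TPM, and the log2 difference was 0.15. CYP1A1 and CYP1A2 are related in sequence, so reads could be divided between them by estimation, and both values are uncertain for that reason.

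For the 7906 protein-coding genes averaging 10 TPM or more, log2 differences ran from -0.29 at the 5th percentile to 0.31 at the 95th percentile. The 5 members above this level (CYP1B1, TIPARP, AHR, ARNT and AHRR) all lay within this range. For CYP1A1, the range of the 4135 protein-coding genes between 1 and 10 TPM, from -0.37 to 0.44, also held its value of -0.25. These ranges are across genes and do not stand for the spread between replicates.

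Single transcripts differed more than gene totals. For the 24739 transcripts with a mean between 1 and 10 TPM, log2 differences ran from -0.93 at the 5th percentile to 0.99 at the 95th percentile. The values of the ARNT transcript XM_005245151.3 (-0.78) and the CYP1A1 transcript NM_001319217.2 (-0.60) lay within this range. Like those of genes, the range does not stand for the spread between replicates. Of the 52 transcripts, 10 were listed at 0 in both libraries, 3 were past 2-fold on the side of CCA-1.1, and none was past 2-fold on the side of DMSO. The transcripts at 0 were all predicted forms of ARNT. Of all transcripts listed, 1.16% were past 2-fold higher and 1.07% lower, and among transcripts with a mean of no less than 1 TPM 3.65% were higher. The AHRR and TIPARP transcripts among the 3 reached such a mean only through the CCA-1.1 library, so their number is not read against that share.

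The AHRR transcript NM_001377239.1 stood at 0 with DMSO and at 4.95 TPM with CCA-1.1, a log2 difference of 2.57. The other AHRR transcript, NM_001377236.1, was at 37.9 TPM and 39.3 TPM, a log2 difference of 0.05. The higher AHRR total in CCA-1.1 therefore came mainly from the first of these, which supplied 78.2% of the gain. AHRR also shares sequence with the readthrough gene PDCD6-AHRR, which was at 7.39 TPM with DMSO and 5.85 TPM with CCA-1.1, and both together were at 45.3 TPM and 50.1 TPM. Kallisto divides reads shared by overlapping transcripts by estimation, and the part of this division in the AHRR values was not tested.

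The TIPARP transcript NM_001184718.2 was at 0.53 TPM with DMSO and 7.47 TPM with CCA-1.1, a log2 difference of 2.47. The leading transcript NM_015508.5 was at 79.3 TPM and 80.9 TPM, and the predicted transcript XM_047447935.1 was at 0.80 TPM and 0.54 TPM. A further curated transcript, NM_001184717.1, was at 0.76 TPM and 0.12 TPM. By these estimates, 89.9% of the gain of TIPARP came from NM_001184718.2. Without it the gene was at 81.0 TPM with DMSO and 81.8 TPM with CCA-1.1, a log2 difference of 0.01. As this transcript was left out for being past 2-fold higher, a smaller difference was bound to follow. The part that division of shared reads between the transcripts had in these TIPARP values was not tested.

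The ARNT transcript XM_005245157.2 was at 1.61 TPM with DMSO and 5.04 TPM with CCA-1.1, a log2 difference of 1.21. Another predicted transcript, XM_005245151.3, went the other way, from 4.66 TPM to 2.30 TPM, a log2 difference of -0.78. The leading transcript NM_001668.4 was at 25.5 TPM and 23.5 TPM, which was 56.5% and 52.2% of the gene, and NM_178427.3 was at 6.52 TPM and 6.05 TPM. The 30 predicted ARNT transcripts together were at 7.43 TPM with DMSO and 10.2 TPM with CCA-1.1, and the 8 curated ones at 37.7 TPM and 34.9 TPM. By these estimates, the level ARNT total was a sum of lower curated and higher predicted transcripts. Among the predicted ones, XM_005245157.2 was 3.43 TPM higher with CCA-1.1. The part that division of shared reads between the ARNT transcripts had in these values was not tested. Among the 9 genes listed as neighbours of or overlapping with members, none was past 2-fold, beside 1.53% of all 41582 genes. Of the genes with a mean of no less than 1 TPM, which 8 of the 9 had, 3.56% were past 2-fold. The 9 genes include CTSK beside ARNT (309.7 TPM and 267.3 TPM), PDCD6 (161.5 TPM and 148.4 TPM) and EXOC3 (55.2 TPM and 64.6 TPM).

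In CYP1A1, the transcript NM_001319217.2 held 71.9% of the gene in DMSO (3.41 TPM) and 49.5% in CCA-1.1 (1.90 TPM). NM_000499.5 was at 1.33 TPM and 1.73 TPM, and NM_001319216.2 was listed at 0 and at 0.21 TPM. None of these was past 2-fold.

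The promoter windows of the members show where the core of the XRE lies near their start sites. RefSeq promoter windows of GRCh38.p14, from 250 bases before to 50 bases after a start site, were at hand for 6 of the 7 genes, with 9 windows in all; CYP1B1 had none in the table. The letters GCGTG, the XRE core, were searched on both strands, as were TNGCGTG, which contains that core, and ACGTG, the core of the hypoxia response element (HRE) that the ARNT dimers with hypoxia factors bind. GCGTG was present in 5 of the 9 windows, of AHR, AHRR, CYP1A1 and TIPARP, against 36.5% of all 35116 windows of this length. TNGCGTG was in 1 window, that of the first AHRR start, against 5.51% of all. ACGTG was in 2 windows, of AHR and CYP1A1, against 21.4% of all, and in AHR both strands matched at overlapping positions. The upstream stretches of AHRR, CYP1A1 and TIPARP are printed because they belong to the repressors and the classical target gene described above; capitals mark GCGTG, or CACGC where it reads on the opposite strand.
AHRR, first start, chr5:321464-321713, plus strand: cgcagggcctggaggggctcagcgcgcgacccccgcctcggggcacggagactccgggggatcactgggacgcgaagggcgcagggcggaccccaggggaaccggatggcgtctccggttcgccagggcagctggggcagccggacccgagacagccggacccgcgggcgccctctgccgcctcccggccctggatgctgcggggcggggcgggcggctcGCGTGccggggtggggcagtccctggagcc
CYP1A1, chr15:74725529-74725778, minus strand: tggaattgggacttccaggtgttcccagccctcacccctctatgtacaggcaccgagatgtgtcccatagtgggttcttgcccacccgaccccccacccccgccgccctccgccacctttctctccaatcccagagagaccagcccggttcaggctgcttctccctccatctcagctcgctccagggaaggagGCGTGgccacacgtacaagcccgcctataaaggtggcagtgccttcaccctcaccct
TIPARP, first start, chr3:156674340-156674589, plus strand: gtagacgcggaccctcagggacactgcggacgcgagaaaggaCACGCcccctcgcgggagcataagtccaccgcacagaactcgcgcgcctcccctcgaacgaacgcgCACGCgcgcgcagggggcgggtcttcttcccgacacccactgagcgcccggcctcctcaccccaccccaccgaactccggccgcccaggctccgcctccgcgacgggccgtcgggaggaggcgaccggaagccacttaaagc
Counted from the start site, with the base before it as -1, the core begins at -30 in AHRR, at -57 in CYP1A1, and at -208 and -142 in TIPARP. A match of letters is a description and not a binding site, and the elements best known at CYP1A1 lie further upstream, outside the window.

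**Figure D2:**
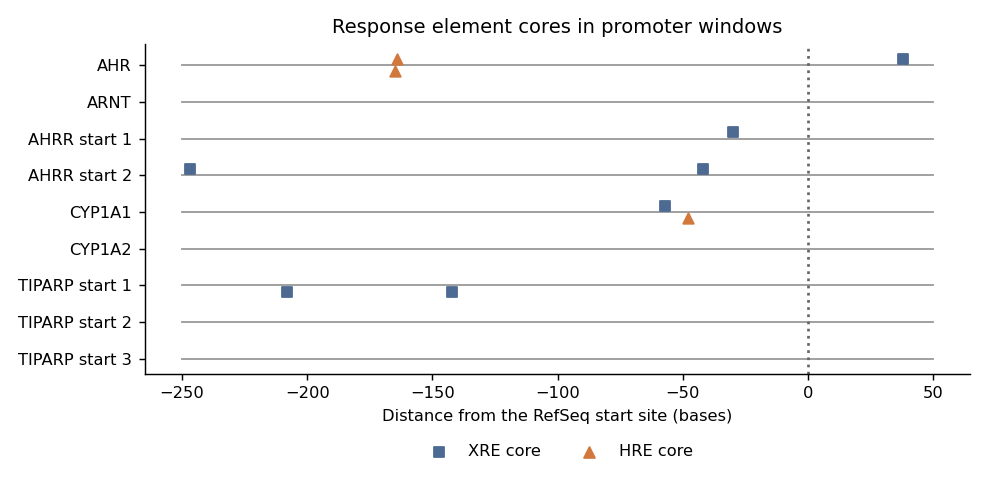
Positions of the XRE core (squares) and the HRE core (triangles) in each promoter window, in bases from the RefSeq start site; markers above the line read on the strand of the gene and those below it on the opposite strand. ARNT, CYP1A2 and the other TIPARP starts hold neither core, and the second AHRR start holds 2 XRE cores.

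The genes around the receptor were described by lists. The chaperones that hold AHR in the cytoplasm (HSP90AA1, HSP90AB1 and PTGES3) had no gene past 2-fold, and their median difference was -0.03. Among all genes with a mean of no less than 1 TPM, 3.56% were past 2-fold. HSP90AB1 was at 1258 TPM with DMSO and 1334 TPM with CCA-1.1, HSP90AA1 was at 1283 TPM and 1261 TPM, and PTGES3, the co-chaperone p23, was at 713.5 TPM and 684.0 TPM. Each of these was thus above AHR in both libraries.

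Of the 13 relatives of AHR and ARNT with bHLH-PAS domains, 9 had a mean of no less than 1 TPM, 0 were past 2-fold and the median difference of these 9 was -0.11, beside 3.56% past 2-fold among all genes of that level. HIF1A, the hypoxia factor that also pairs with ARNT, was at 533.6 TPM with DMSO and 517.1 TPM with CCA-1.1. EPAS1 (HIF-2 alpha) was at 408.2 TPM and 361.2 TPM, and NPAS2, a clock gene, at 60.0 TPM and 58.3 TPM, a log2 difference of -0.04 that was -0.64 over curated transcripts only. HIF1A and EPAS1 were thus each several times above AHR and ARNT. The 8 coregulators had no gene past 2-fold, beside the same 3.56%, and a median of -0.04. NCOA3 was at 67.5 TPM and 67.4 TPM, and SMARCA4, a chromatin remodeling ATPase, at 42.1 TPM and 45.5 TPM. MED1 was at 30.0 TPM and 28.4 TPM.

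Among 16 further genes reported as AHR targets, 11 had a mean of no less than 1 TPM, none was past 2-fold higher and 1 was past 2-fold lower, beside 3.56% past 2-fold among all genes of that level, with a median difference of -0.003. That gene was PTGS2, the inducible prostaglandin synthase and also an NF-kB target, at 32.7 TPM with DMSO and 13.3 TPM with CCA-1.1, a log2 difference of -1.24. NQO1, a quinone reductase shared by AHR and NRF2, was at 256.4 TPM and 255.9 TPM. EREG, an EGFR ligand, was at 113.9 TPM and 71.8 TPM, a log2 difference of -0.66, and NFE2L2, which encodes NRF2, was at 85.8 TPM and 95.7 TPM. SERPINB2 was at 21.1 TPM and 13.5 TPM, a log2 difference of -0.61. Of the 11 genes, 5 were higher and 6 lower with CCA-1.1, and the highest difference was 0.26. Of the drug-metabolizing members, GSTA1 and GSTA2 were listed at 0 and ALDH3A1 was at 0.24 TPM and 0.23 TPM. UGT1A6, which shares exons with UGT1A1, was at 7.40 TPM and 7.44 TPM, while UGT1A1 and CYP2S1 were below 1 TPM in both libraries.

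Tryptophan breakdown includes the enzymes that make AHR ligands. Of its 13 listed genes, 8 had a mean of no less than 1 TPM, 0 were past 2-fold and the median difference was 0.03. Among all genes of that level, 3.56% were past 2-fold and the median was also 0.03. KYNU, the hydrolase that breaks down kynurenine, was at 339.5 TPM with DMSO and 243.7 TPM with CCA-1.1, a log2 difference of -0.48, and of -0.12 over its curated transcripts only. TDO2, which opens the tryptophan ring, was at 12.4 TPM and 13.1 TPM, while IDO1, with the same activity, was at 0.23 TPM and 0.11 TPM. KYAT1, a kynurenine aminotransferase, was at 52.3 TPM and 56.6 TPM, and AFMID, which releases kynurenine from its formyl form, at 32.6 TPM and 30.6 TPM. Of the enzymes that open the ring, TDO2 was thus the main one by RNA level in both libraries.

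**Figure D3:**
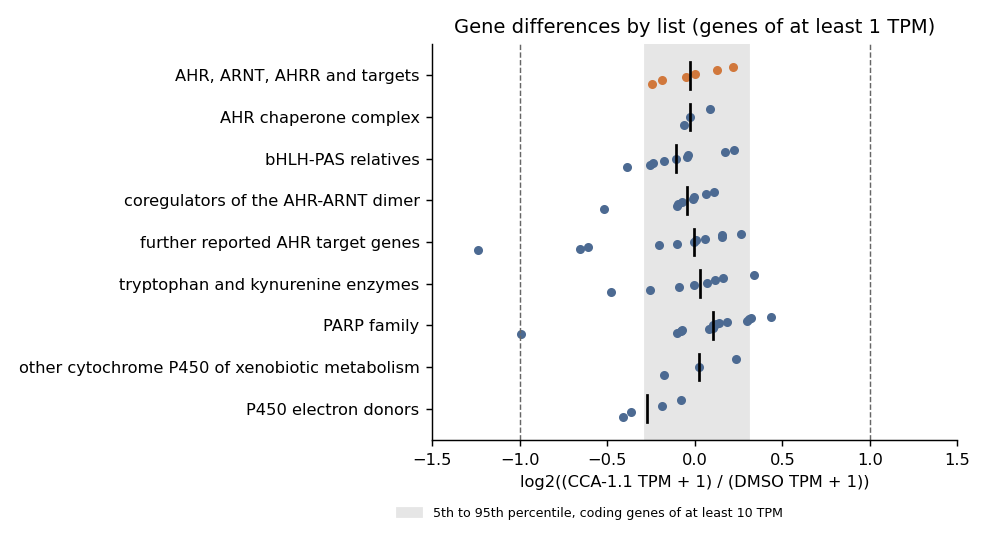
Log2 differences of genes with a mean of no less than 1 TPM, by list, with a black bar at each median, dashed lines at 2-fold and a grey band from -0.29 to 0.31, the 5th to 95th percentile of protein-coding genes of at least 10 TPM. The AHR pathway genes (orange) lie within the band, and PTGS2 at -1.24 is the point beyond 2-fold.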

How the data were processed

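mRNA was sequenced from U87 cells treated with DMSO or CCA-1.1, with 1 library per group. Per the labels and the methods, the authors used FastQC 0.11.9 and MultiQC 1.1 for read quality, then estimated transcript levels by Kallisto pseudo-alignment to GRCh38.p14; bias correction and strand setting are not stated. The deposited values are TPM, as column sums of 999999 and 1e+06 show; read depth is unknown. Here 169966 of 177816 transcripts were matched to gene symbols through RefSeq, versions ignored, and TPM was summed per gene. Differences used a pseudocount of 1 TPM and a threshold of 2-fold. The p-value criterion of the methods was not used, since only TPM of 1 library per group was at hand. The paper does list p-values from EdgeR for this comparison, without stating a number of replicates for sequencing. Members and lists were chosen with earlier results of these data known. The text names every member, its 3 highest transcripts and those past 2-fold, and from each list the 3 highest genes and those past 2-fold; other genes (ARNT2, ALDH3A1, GSTA1, GSTA2, UGT1A1, UGT1A6, CYP2S1, TDO2, IDO1, ZC3HAV1, PARP2, neighbours and markers) were named after their values were seen. The gene SERPINB2 and the TIPARP transcript NM_001184717.1 were also named after their values were seen. No gene of similar pattern was named, since 2 libraries give 1 difference per gene. Some items of the lists are not reported here. The calculation was tested on simulated data with large planted changes and little noise. That test checks the sums and calls only, and not the spread between libraries. Python 3.11.15, pandas 2.3.3, numpy 2.4.6 and matplotlib 3.10.9 were used. The reference genome supplied was of another build and was not used.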

Additional observations from a re-analysis of the deposited data

How the results depend on the processing

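No paired analysis was possible because each condition has 1 library, and for the same reason no library could be left out. No member gene was past 2-fold under any of the 9 alternatives, namely a pseudocount of 0.1 TPM, of 0.01 TPM or of 0, a minimum mean of 1 TPM, median-ratio scaling, curated transcripts only, versioned matching, rescaling over protein-coding transcripts and, added after seeing the data, sums without the transcripts past 2-fold. The last of these leaves out only transcripts past 2-fold higher. It can lower a gene difference but not raise it, so its result is no separate support. The number of member transcripts past 2-fold was 8 with a pseudocount of 0.1 TPM, 16 with 0.01 TPM and 10 with none, since smaller pseudocounts let transcripts near 0 pass. The sign of AHR, AHRR, CYP1A1, CYP1A2, CYP1B1 and TIPARP was kept wherever a value was given. ARNT, at 0.0003, had a negative value under 4 of 9 alternatives, down to -0.12 without XM_005245157.2. With PDCD6-AHRR added, chosen after seeing the data, AHRR was at 0.14. Without a pseudocount CYP1A2 was at 0.78. Shares of the leading transcript do not depend on the pseudocount; with curated transcripts only, that of ARNT was 67.7% with DMSO and 67.3% with CCA-1.1. Of 345 values recomputed for 39 other genes named, 337 kept their side of 2-fold. The exceptions were under smaller or no pseudocounts, in UGT1A1, CYP2S1 and IDO1, which are below 1 TPM, and in ZC3HAV1, at -1.03 with 0.1 TPM, 0.01 TPM or none. With curated transcripts only, NPAS2 moved from -0.04 to -0.64 and KYNU from -0.48 to -0.12. The sign was kept in 344, and ALDH3A1 was at 0 with curated transcripts only. Values near 0 are limited by the unknown read depth.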

Other observations

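The PARP family, to which TIPARP belongs, had 15 of 16 listed genes with a mean of no less than 1 TPM, of which 11 were higher and 4 lower with CCA-1.1, none past 2-fold with a pseudocount of 1 TPM, with a median difference of 0.11. Of all genes at that level, 56.1% were higher and 43.7% lower, 3.56% were past 2-fold, and the median was 0.03. TIPARP was above each of these genes in both libraries, where TNKS2 (45.6 TPM with DMSO, 48.3 TPM with CCA-1.1) and PARP6 (39.1 TPM and 42.6 TPM) came next; PARP1, the DNA damage sensor, was at 29.6 TPM and 33.7 TPM. The farthest values were those of ZC3HAV1, an antiviral zinc finger protein, at 36.0 TPM with DMSO and 17.6 TPM with CCA-1.1 (-0.99, and -1.03 with a pseudocount of 0.1 TPM, which is past 2-fold), and PARP2, at 15.8 TPM and 21.7 TPM (0.43).

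The 4 genes listed around the electron supply of P450 enzymes, not all of them donors themselves, had lower levels with CCA-1.1. All differed by less than 2-fold, with a median difference of -0.28, and PGRMC1 differed by -0.08. Of all genes with a mean of no less than 1 TPM, 43.7% were lower and 3.56% past 2-fold, and the median was 0.03. CYB5R3, cytochrome b5 reductase, was at 192.5 TPM with DMSO and 144.8 TPM with CCA-1.1, PGRMC1 at 272.0 TPM and 257.3 TPM, and POR, the reductase that CYP1 enzymes need, at 53.9 TPM and 47.2 TPM. Of 16 other xenobiotic P450 genes, 3 had a mean of no less than 1 TPM, namely CYP2R1 (13.4 TPM and 13.7 TPM), CYP2E1 (11.68 TPM and 13.95 TPM) and CYP2J2 (6.05 TPM and 5.24 TPM), so that CYP1B1 was above each listed P450 gene in both libraries.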
